A study of Mus musculus with 32 samples.

Results

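The transporters described here are the genes whose symbols begin with Slco, Slc22a or Abca to Abcg followed by a digit, without Abcb11 and without pseudogenes marked -ps. The symbols gave 66 of the 21880 genes in the authors' deposited table, and no measured value took part in the choice. RNA came from whole livers of 4 genotypes (WT, L-Dnm1l-KO, TKO, DKO) taken at 2 and 6 months of age (2M and 6M), and each genotype and age has 4 libraries. Floxed mice on a mixed C57BL/6/129 background had been crossed with Alb-Cre mice, in which the albumin promoter drives Cre in hepatocytes. L-Dnm1l-KO livers lost Dnm1l, which encodes the mitochondrial fission protein DRP1. DKO livers lost the mitofusin genes Mfn1 and Mfn2, and TKO livers lost all of these genes. Cells in which this promoter is silent keep the floxed alleles. The labels do not give the sex of the mice. Each knockout was compared with age-matched WT, so that the genotypes of 1 age share their WT libraries. The labels mark all WT libraries as Drp1 WT and none as WT of the Mfn1 and Mfn2 lines. In the DKO and TKO comparisons a difference between mouse lines therefore cannot be told apart from one of genotype. The table holds 1 mean normalized count per gene over all libraries and, for each comparison, a log2 fold change with its standard error. Values of single livers were not analysed here, and the spread between livers enters only through these standard errors. Nothing in the labels says whether libraries of 1 group came from separate mice, so the P values rest on the spread between libraries. The comparisons hold the same mean counts, so this spread may have been estimated over all groups together and not only over the groups compared.

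Hepatocytes take up bile acids, hormones, bilirubin and drugs from sinusoidal blood through SLCO carriers (the organic anion transporting polypeptides) and through SLC22 carriers, which move organic cations, anions and carnitine. ATP-binding cassette (ABC) pumps then export conjugates, phospholipid and sterol, either across the canalicular membrane into bile or back across the sinusoidal membrane. Further ABC proteins work in mitochondria and peroxisomes, and those of the ABCE and ABCF subfamilies have no membrane domain and act on ribosomes. Many of the hepatic transporter genes are known targets of nuclear receptors and of hepatocyte transcription factors.

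Most of the 66 genes were read thinly. The mean normalized count was under 1 for 25 members, from 1 to 10 for 22 and at least 10 for 19, with a median of 2.7 over the members and 1.52 over all genes. Slc22a3, an organic cation carrier, stood apart with a mean of 15110, which was 95% of the sum over the members and rank 7 among all genes. Per kilobase of exon, Slc22a3 had a mean of 3348, 82.8 times that of the next member. That next member was Abcg8, a subunit of the canalicular sterol pump, at 40.4 per kilobase. The uptake carriers Slco1a1 and Slco1b2 followed at 19.98 and 18.51, and the peroxisomal fatty acid importer Abcd3 was at 8.86. The bile and blood conjugate pumps Abcc2 and Abcc3 were at 5.48 and 5.44 per kilobase. No spread between livers is given for these levels, so neighbours in this order cannot be told apart.

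**Figure D1:**
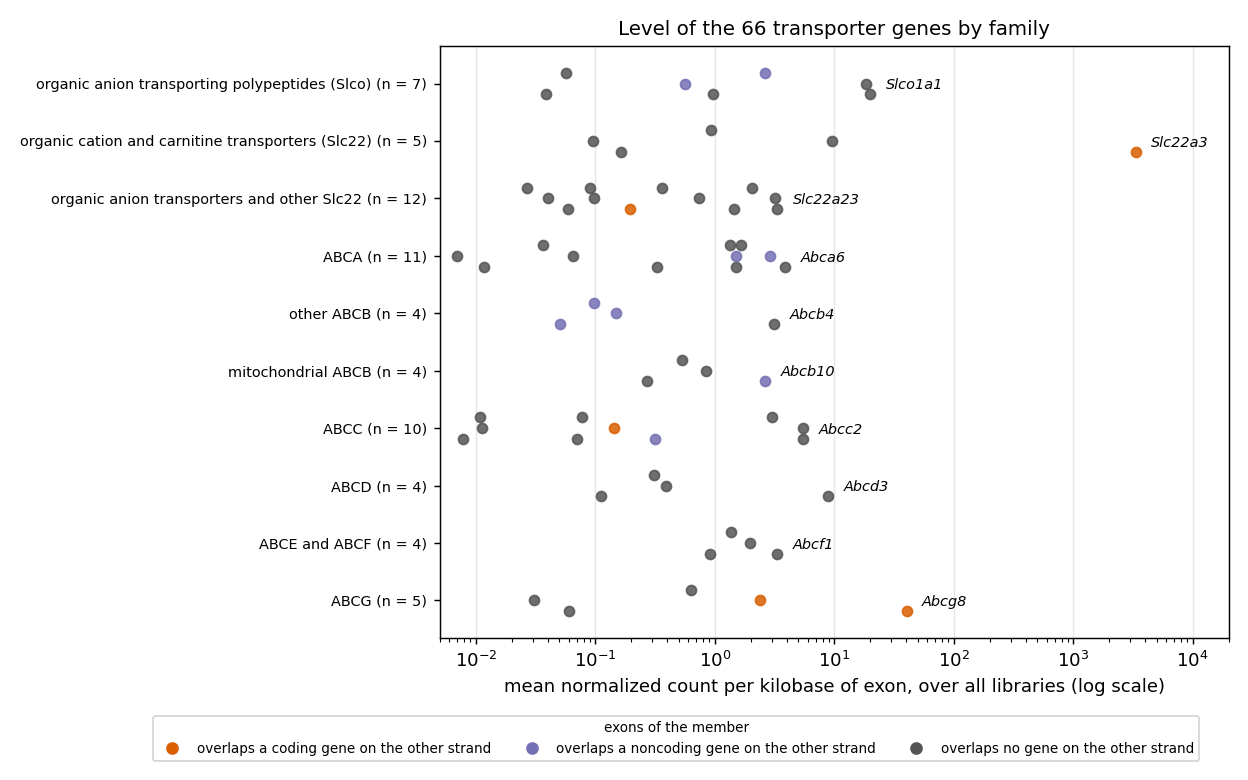
Each point is 1 of the 66 transporter genes, placed by its mean normalized count per kilobase of exon over all libraries (log scale) and by family, and coloured by what its exons overlap on the other DNA strand. Slc22a3 lies at 3348 per kilobase, far to the right of Abcg8 at 40.4 and of every other member.

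The library kit marks strand, and the strand setting of the authors' counting is not given in the sources used here, so the overlap of each member with genes of the other strand was read from the annotation. Exons of 5 of the 66 members overlap exons of a coding gene on the other strand (7.58%), compared with 4804 of all 21880 genes (22%) and 92 of the 100 genes with the highest means. Slc22a3 (chr17:12418960-12507704, minus strand, GRCm38) shares 420 exonic bases with Plg, the gene of the abundant plasma protein plasminogen (chr17:12378608-12419385, plus strand), at the 3′ ends of both genes. The Slc22a3 mean was 67.1 times that of Plg itself, which was 225.3. Reads of Slc22a3 and reads of Plg cannot be told apart without that setting, and the value printed for Slc22a3 may hold both. The doubt is wider than this gene, since Slc22a3 was also above Alb, the gene of serum albumin, which overlaps no gene on the other strand (2117 per kilobase). Whether reads were counted on the strand opposite to each gene was not tested. If they were, the levels and fold changes of members with no gene on the other strand would also rest on the few reads that a stranded kit leaves on the wrong strand. Abcg8 and Abcg5, the partner subunits of 1 sterol pump, lie head to head on chromosome 17 and share 82 exonic bases. Their levels differed 17-fold per kilobase, with a mean of 151.5 for Abcg8 and 6.438 for Abcg5. The other members of this class, Abcc10 (51 bases with Dlk2) and Slc22a12 (682 bases with Nrxn2), had means under 1. Of the remaining members, 52 overlap no gene on the other strand and 9 overlap a noncoding gene there, among them Abca3, Slco2b1, Abcb10 and Abca8b.

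Transporter mRNAs that differed from WT were all lower, and they were found in L-Dnm1l-KO livers at 2M and in DKO livers at both ages. Slco1b2, the main hepatic uptake carrier for organic anions, fell in each of these 3 comparisons. A gene was called at an adjusted P under 0.05 in the deposited DESeq2 Wald test, and between 19 and 35 members had an adjusted P after DESeq2's filter on low counts. At 2M, 3 of 25 members tested were called lower in L-Dnm1l-KO livers (12%), beside 3.22% of all genes tested. None was called higher, beside 3.06% of all genes. In DKO livers at 2M, 3 of 29 members tested were called lower (10.3%), beside 4.94% of all genes, and none higher, beside 4.14%. In DKO livers at 6M, 6 of 35 members tested were called lower (17.1%), beside 9.42% of all genes, and none higher, beside 5.7%. Most members tested overlap no gene on the other strand. Coding genes of that class were called lower in 5.37%, 5.18% and 16% and higher in 0.528%, 1.29% and 0.625% in these 3 comparisons. Of the members in it, 2 of 17, 2 of 21 and 5 of 26 were called lower. The lack of higher calls is thus near the background of that class.

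No member was called by DESeq2 in TKO livers at 2M (29 tested), where 0.0995% of all genes were called higher and 0.199% lower. None was called in TKO livers at 6M (19 tested), where the shares were 0.201% and 0.535%, nor in L-Dnm1l-KO livers at 6M (22 tested), where they were 1.91% and 1.56%. At an unadjusted P under 0.05, DESeq2 gave 2 of the 66 members in TKO at 2M (3.03%, beside 2.64% of all genes), 2 in TKO at 6M (3.03%, beside 2.92%) and 5 in L-Dnm1l-KO at 6M (7.58%, beside 4.63%). For the other comparisons the unadjusted counts were 9 members in L-Dnm1l-KO at 2M (13.6%, beside 7.45%), 10 in DKO at 2M (15.2%, beside 8.6%) and 13 in DKO at 6M (19.7%, beside 14%). With so few genes called in TKO livers anywhere in the table, a count of 0 members there is near the background.

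In DKO livers at 6M the members as a whole lay near other genes without a gene on the other strand. Over the 41 members whose mean reached 1, the median log2 fold change was -0.35 in L-Dnm1l-KO at 2M, -0.25 in DKO at 2M and -0.79 in DKO at 6M. The medians over the 5899 coding genes that overlap no gene on the other strand were -0.37, -0.10 and -0.83 in the same comparisons. The 31 members that overlap no such gene had medians of -0.59, -0.205 and -0.82, and in L-Dnm1l-KO at 6M -0.19 beside -0.085 over all such genes. These medians are descriptions and were not tested. Over all 12419 genes with that minimum mean they were -0.09, 0.00 and -0.32. In L-Dnm1l-KO at 6M the member median was -0.11, and it was -0.08 in TKO at 2M and 0.09 in TKO at 6M. In DKO livers at 6M, 35 of the 41 members had a log2 fold change below 0, and 80.4% of the coding genes with no opposite-strand gene did so too. Among genes whose mean reached 10 and that overlap no opposite-strand gene, 5 of 13 members were called lower in DKO at 6M. Of all such genes 34.4% were. At 2M the member count was 2 of 13 in L-Dnm1l-KO, beside 8.69%, and 2 of 13 in DKO, beside 10.5%. Fold changes were also centred on 1 of 2 medians, taken over genes whose mean reached 10. One was that of genes overlapping an opposite-strand coding gene (0.30 in DKO at 6M) and the other that of all remaining genes, noncoding overlaps included (-0.63). With this centring the 6 calls in DKO at 6M were lost and 1 member, Slco1a1, was called higher. The same centring left 1 call, of Slc22a3, in L-Dnm1l-KO at 2M. In DKO at 2M it left 2 calls, of Abca9 and Slc22a3, while Slco1b2 lost its call in all 3 comparisons (adjusted P 0.0914, 0.0743 and 0.222). Its centred log2 fold changes were -1.01 in L-Dnm1l-KO at 2M, -0.97 in DKO at 2M and -0.73 in DKO at 6M, each below the median of those remaining genes. Genes with no opposite-strand gene at all had a lower median, -0.85, in DKO at 6M. The fold changes below are those before centring, relative to the library as a whole.

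**Figure D2:**
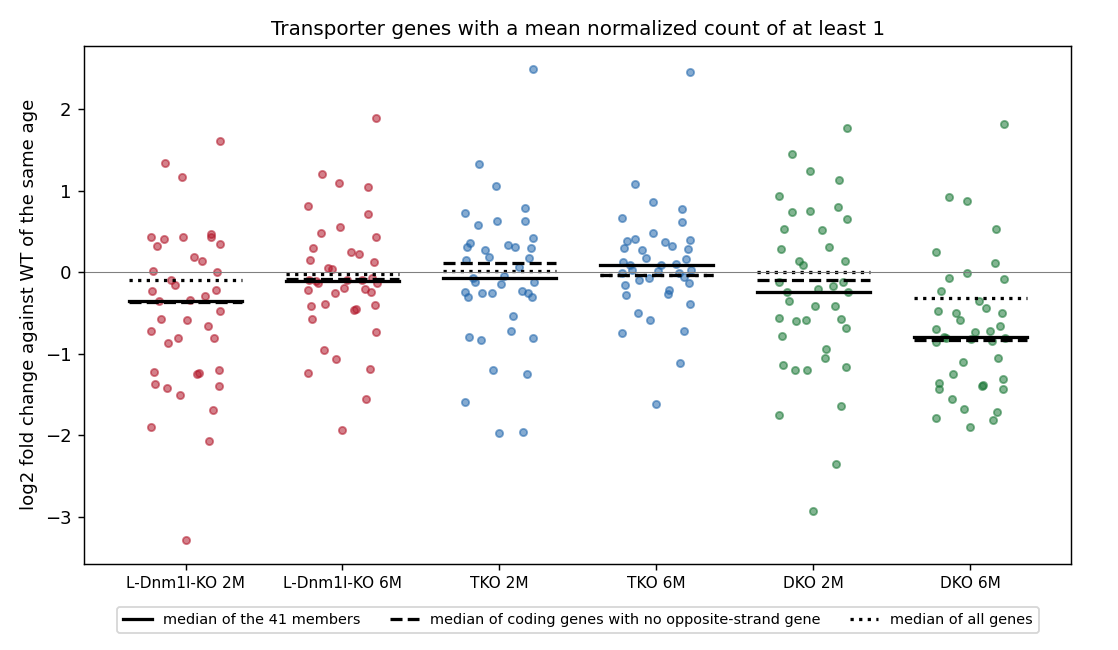
Points are the log2 fold changes of the 41 transporter genes whose mean normalized count reached 1, for each knockout over WT at its age. The member median (solid line) lies on the median of coding genes with no opposite-strand gene (dashed line) in DKO at 6M, at -0.79 and -0.83, and below the median of all genes (dotted line) at -0.32.

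Of the sinusoidal uptake carriers, Slco1b2 fell in L-Dnm1l-KO livers at 2M and in DKO livers at both ages, and Slco2b1 in L-Dnm1l-KO livers at 2M. Slco1b2 (mean 91.25, chr6:141629518-141686646, GRCm38) was at 38.7% of WT in L-Dnm1l-KO at 2M, a log2 fold change of -1.37 ± 0.37 (SE) with an adjusted P of 0.0081 in DESeq2. It was at 43.6% of WT in DKO at 2M (-1.20 ± 0.36, adjusted P 0.0158) and at 39% in DKO at 6M (-1.36 ± 0.35, adjusted P 0.00351). In TKO livers the log2 fold change of Slco1b2 was 0.06 ± 0.35 at 2M and -0.10 ± 0.34 at 6M, and in L-Dnm1l-KO at 6M it was -0.47 ± 0.35. Its fold changes in L-Dnm1l-KO and DKO livers at 2M thus lay more than 3 standard errors below 0, and those in TKO livers lay within 1. Slco2b1 (mean 15.56, chr7:99657804-99711340), a broad uptake carrier for sulfated steroids and drugs, fell in L-Dnm1l-KO at 2M to 37.8% of WT (-1.40 ± 0.43, adjusted P 0.0271). In the remaining comparisons Slco2b1 ranged from -0.73 ± 0.39 in TKO at 2M to 0.32 ± 0.34 in TKO at 6M and was not called.

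Slco1a1 did not follow these carriers. Slco1a1 (mean 105.4), a neighbour of Slco1b2 in the chromosome 6 cluster, was not called in any comparison, and its log2 fold changes ran from -0.25 ± 0.31 in DKO at 2M to 0.72 ± 0.30 in L-Dnm1l-KO at 6M. Slco1a4, which is inducible through xenobiotic receptors, had a mean of 6.256 and values between -1.60 ± 0.86 (TKO at 2M) and 0.81 ± 0.66 (L-Dnm1l-KO at 6M). Slc22a7, which carries organic anions, had a mean of 3.034, with log2 fold changes below 0 in the 6 comparisons, from -0.84 ± 0.72 in TKO at 2M to -2.35 ± 0.84 in DKO at 2M. DESeq2 gave Slc22a7 an adjusted P only in DKO at 6M, where it was 0.102. Slc22a5, the carnitine carrier that supplies fatty acid oxidation, had a mean of 2.874 and log2 fold changes of -3.29 ± 1.26 and -2.93 ± 1.26 in L-Dnm1l-KO and DKO at 2M, with no adjusted P in either.

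**Figure D3:**
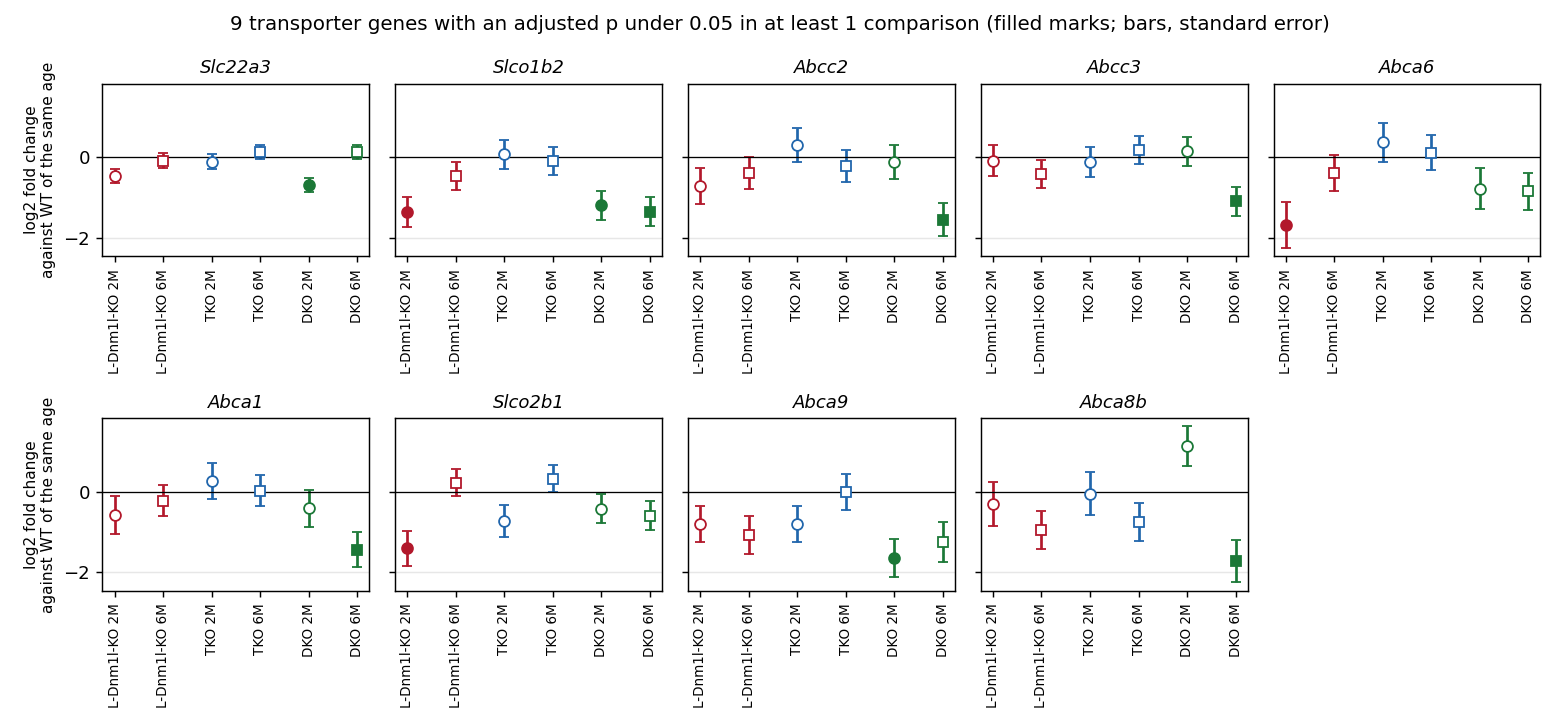
Each panel is 1 of 9 transporter genes called in at least 1 comparison, with its log2 fold change from age-matched WT (marks) and standard error (bars) for L-Dnm1l-KO (red), TKO (blue) and DKO (green) at 2M (circles) and 6M (squares), filled where the adjusted P was under 0.05. Slco1b2 is filled in 3 comparisons, at -1.37, -1.20 and -1.36, and no blue mark is filled in any panel.

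For called members with 1 start in the RefSeq promoter table, the bases before the start were read to show which genes hold the letters of a nuclear receptor half-site or a TATA box. The half-site AGGTCA was searched on both strands of the 120 bases before the start. It occurred in 6.91% of 32851 windows of all genes and in 5 of the 60 windows of the members (8.33%), those of Slco1b2, Abcc2, Slco1a1, Slc22a14 and Slc22a27. TATAAA on the gene strand occurred in 4.19% of all windows and in 6.67% of member windows, Abca1 among them. Shown 5′ to 3′ on the gene strand (GRCm38.p6), with the half-site of either strand or TATAAA in capitals, are 4 full windows and, for Abcc2, whose start differs between annotations, the bases around its match. Abca9 also has 1 start in the table, but 43 bases of its window lie inside the annotated gene and it holds no half-site, so it is not shown. A match is a run of letters and was not tested as a bound site.
Slco1b2, chr6:141629398-141629517, plus strand: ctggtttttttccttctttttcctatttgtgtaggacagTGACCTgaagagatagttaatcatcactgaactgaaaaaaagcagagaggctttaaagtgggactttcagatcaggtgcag
Abcc2, chr19:43782249-43782274, plus strand: tcaggatgaaAGGTCAggagacttgc
Abca1, chr4:53159896-53160015, minus strand: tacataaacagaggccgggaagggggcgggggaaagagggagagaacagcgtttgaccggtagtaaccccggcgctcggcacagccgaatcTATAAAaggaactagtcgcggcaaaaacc
Abca8b, chr11:109995846-109995965, minus strand: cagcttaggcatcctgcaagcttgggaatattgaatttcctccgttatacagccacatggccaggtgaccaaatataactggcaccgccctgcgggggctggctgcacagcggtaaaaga
Slc22a3, chr17:12507705-12507824, minus strand: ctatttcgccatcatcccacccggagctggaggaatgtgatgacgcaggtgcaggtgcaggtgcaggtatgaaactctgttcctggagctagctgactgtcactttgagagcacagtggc

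The half-site begins 81 bases before the start of Slco1b2 and 49 before the RefSeq start of Abcc2. By the GENCODE annotation used for the coordinates given here, the Abcc2 match lies inside the gene, 67 bases past its start. Both genes fell in DKO livers at 6M, and so did Abca1 and Abca8b, whose windows hold no such letters. Slco1a1, whose window also holds the half-site, did not fall there, at a log2 fold change of 0.53 ± 0.31 without a call.

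Among canalicular pumps, 1 gene passed the test. Abcc2 (MRP2, mean 46.72, chr19:43782192-43840740, GRCm38), which exports bilirubin glucuronide and other conjugates into bile, fell in DKO at 6M to 33.9% of WT (-1.56 ± 0.41, adjusted P 0.00385 in DESeq2). In DKO at 2M Abcc2 was at -0.12 ± 0.42, in L-Dnm1l-KO at -0.73 ± 0.44 (2M) and -0.41 ± 0.40 (6M), and in TKO at 0.30 ± 0.42 and -0.23 ± 0.39. Abcb4, the flippase that supplies phosphatidylcholine to bile, was at 0.80 ± 0.39 in DKO at 2M and -0.74 ± 0.38 in DKO at 6M, with no call at either age. Abcg8 was at -0.57 ± 0.25 in DKO at 2M and 0.25 ± 0.25 in DKO at 6M, and its partner Abcg5 at -1.75 ± 0.84 and -0.86 ± 0.73, also without a call. Abcg5 and Abcg8 are transcribed away from each other, and reads at the shared exonic bases cannot be told apart without the strand setting. Abcg2, a pump for sulfates and drugs, had a mean of 5.163 and ranged from -1.06 ± 0.84 in DKO at 6M to 1.33 ± 0.91 in TKO at 2M. Abcb1a, the drug pump P-glycoprotein, had a mean of 0.5377, at which no fold change is given. Over the canalicular list of 7 genes, 1 of 5 tested was called lower in DKO at 6M and none in the other 5 comparisons, beside 9.42% of all genes called lower in DKO at 6M, so that 1 call is near the background. The bile salt pump Abcb11, outside the rule, was also lower in DKO at 6M (-1.15 ± 0.38, adjusted P 0.0259).

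Of 4 pumps of the sinusoidal side, 3 were tested in DKO livers at 6M and 2 were called lower, Abca1 and Abcc3. Beside these, 9.42% of all genes were called lower. The 3 tested overlap no opposite-strand gene and have means above 10, a class in which 34.4% were called lower. Abca1 (mean 15.62, chr4:53030787-53159895), which loads cholesterol and phospholipid onto apolipoprotein A-I, fell to 36.9% of WT (-1.44 ± 0.43, adjusted P 0.0114 in DESeq2). Abcc3 (MRP3, mean 31, chr11:94343295-94392997), which returns glucuronides and bile acids to blood, fell to 46.5% (-1.10 ± 0.36, adjusted P 0.0243). Outside DKO at 6M, Abca1 ranged from -0.59 ± 0.47 to 0.27 ± 0.44 and Abcc3 from -0.42 ± 0.35 to 0.16 ± 0.34, and neither was called. Both lost their call in DKO at 6M on that centring (adjusted P 0.277 and 0.502). Abcc6, the hepatic pump whose loss causes ectopic calcification, was at -0.87 ± 0.42 in L-Dnm1l-KO at 2M (adjusted P 0.217) and at -0.69 ± 0.39 in DKO at 6M (adjusted P 0.218). Abcc4, a pump known to rise in cholestasis, had a mean of 0.4988 and is described no further.

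The ABCA lipid transporters of the chromosome 11 cluster gave 3 calls, each in a different comparison. Over all ABCA genes, 1 of 6 tested was called lower in L-Dnm1l-KO at 2M and 1 of 6 in DKO at 2M. In DKO at 6M 2 of 7 were, Abca1 among them. Beside these, 3.22%, 4.94% and 9.42% of all genes were called lower. The shares were 5.37%, 5.18% and 16% of those with no opposite-strand gene. Abca6 fell in L-Dnm1l-KO at 2M to 30.9% of WT (-1.69 ± 0.57, adjusted P 0.0492 in DESeq2), Abca9 in DKO at 2M to 32.1% (-1.64 ± 0.46, adjusted P 0.00816), and Abca8b in DKO at 6M to 30.5% (-1.71 ± 0.52, adjusted P 0.013). These genes lie in 1 cluster on the minus strand, with Abca8b at chr11:109932190-109995845, Abca9 at chr11:110100749-110168196 and Abca6 at chr11:110176820-110251776. Abca8a, which lies between Abca8b and Abca9, was at -1.91 ± 0.66 in L-Dnm1l-KO at 2M (adjusted P 0.0585). Abca9 was at -0.81 ± 0.45 and -1.07 ± 0.47 in L-Dnm1l-KO at 2M and 6M, at -0.81 ± 0.45 in TKO at 2M, at -0.01 ± 0.44 in TKO at 6M and at -1.25 ± 0.49 in DKO at 6M (adjusted P 0.0638), and only its DKO value at 2M passed. Abca8b was at 1.13 ± 0.49 in DKO at 2M (adjusted P 0.141), on the other side of WT from its value at 6M. The cluster's genes are close in sequence, and reads shared between them could be split or lost in the authors' counting. Abca3, a lipid transporter best known from lung surfactant, overlaps a noncoding gene on the other strand by 914 bases and was not called, with its lowest value in L-Dnm1l-KO at 6M (-0.73 ± 0.29, adjusted P 0.152). Of the 11 ABCA genes, 7 had a mean of at least 1, and their median log2 fold change was -0.59 in L-Dnm1l-KO at 2M, -0.57 in DKO at 2M and -1.25 in DKO at 6M. It was also -0.73 in L-Dnm1l-KO at 6M, where all 7 lay below 0 without a call, and 0.34 and 0.02 in TKO at 2M and 6M.

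Slc22a3 had the smallest standard error of the members, 0.18 in each comparison. It fell in DKO at 2M to 62% of WT (-0.69 ± 0.18, adjusted P 0.00242 in DESeq2), was at -0.48 ± 0.18 in L-Dnm1l-KO at 2M (adjusted P 0.0787), and lay between -0.12 and 0.13 in the other 4 comparisons. Plg, which shares its last exon bases, was at -0.72 ± 0.32 in DKO at 2M, fell in L-Dnm1l-KO at 2M (-1.24 ± 0.33, adjusted P 0.006) and fell in DKO at 6M (-1.69 ± 0.32, adjusted P 3.18e-05). Slc22a3 in DKO at 6M was at 0.12 ± 0.18. Genes that, like Slc22a3, overlap an opposite-strand coding gene had a median above 0 in DKO at 6M, of 0.235 at a mean of at least 1 and 0.30 at a mean of at least 10, where genes without overlap had medians below 0.

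The transporters of the mitochondria, the organelle targeted in these mice, gave no call, but few were tested. Of 4 genes, 3 had an adjusted P in DKO at 6M, 2 in DKO and TKO at 2M and 1 in each other comparison. In DKO at 6M 5.7% of all genes were called higher and 9.42% lower, so a count of 0 is near the background. Abcb10, an inner membrane protein needed for heme synthesis, had a mean of 11.36 and values between -0.13 ± 0.42 and 0.44 ± 0.42. Abcb8 and Abcb6 had means of 2.531 and 1.434. In peroxisomes, Abcd3 was at -0.81 ± 0.34 in DKO at 6M (mean 58.44, adjusted P 0.0839 in DESeq2) and between -0.34 ± 0.35 and 0.15 ± 0.35 elsewhere, and Abcd2 had a mean of 1.831. Abcf1, Abce1, Abcf2 and Abcf3, which act on ribosomes, were not called, with Abcf1 at -0.82 ± 0.40 in DKO at 6M (adjusted P 0.15). Slc22a23, an orphan carrier, stayed between -0.15 ± 0.34 and 0.41 ± 0.32, and Slc22a18 and Slc22a30, with means of 5.388 and 6.921, were not called. At these levels the tests were coarse. The median standard error was between 0.36 and 0.42 for the 19 members whose mean reached 10, a 95% half-width of 0.71 to 0.81, and between 0.74 and 0.92 for the 22 members with a mean from 1 to 10. For the 25 members under 1, which include Slc22a4, Slc22a12, Slc22a26 to Slc22a29, Abcc1, Abcc5, Abca7, Abcg1 and Slco3a1, it was 2.72 or more and no change was detectable at this depth.

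To ask whether an effect changed with age, the difference of log2 fold changes (6M minus 2M) was divided by its standard error, taken from both comparisons, and tested against the normal distribution (two-sided), with Benjamini-Hochberg adjustment over the 4423 genes whose mean reached 10. In DKO livers 3 of the 19 members tested differed between ages, beside 11.1% of all genes. Abca8b moved from 1.13 to -1.71, a difference of -2.85 (95% interval -4.24 to -1.45, adjusted P 0.00253). Abcb4 moved from 0.80 to -0.74, a difference of -1.54 (-2.60 to -0.47, adjusted P 0.0461). Slc22a3 moved from -0.69 to 0.12, a difference of 0.81 (0.32 to 1.29, adjusted P 0.0193). Abcc2 and Abcc3, called only at 6M, differed by -1.44 (-2.59 to -0.29, adjusted P 0.0913) and -1.24 (-2.25 to -0.23, adjusted P 0.0972) and so are not shown to differ. For Slco1b2 the difference was -0.16, with an interval from -1.15 to 0.83.

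**Figure D4:**
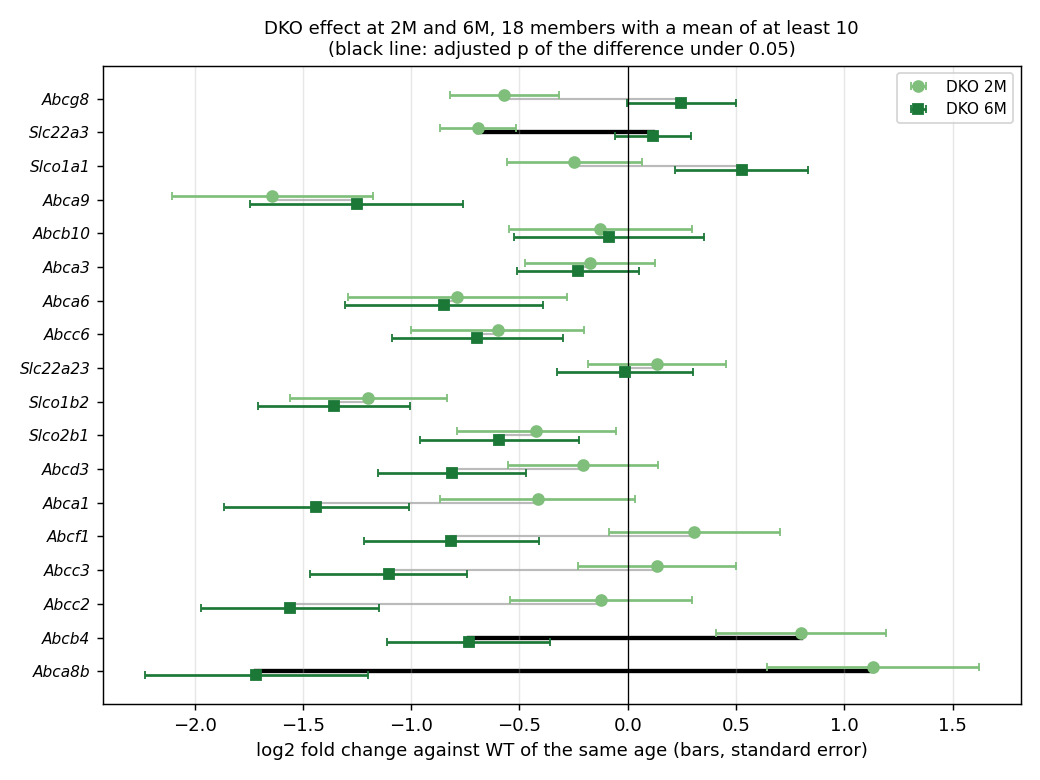
Of the members whose mean reached 10, 18 are listed with their log2 fold change in DKO against WT at 2M (light circles) and 6M (dark squares), with standard errors, joined by a black line where the difference had an adjusted P under 0.05. Black lines mark Slc22a3, Abcb4 and Abca8b, while the marks of Slco1b2 lie together, at -1.20 and -1.36.

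In L-Dnm1l-KO livers no member differed between ages, beside 1.29% of all genes, and in TKO livers none did, beside 0%. At an unadjusted P under 0.05 the same test gave 3 of 19 members in L-Dnm1l-KO, beside 13.9% of all genes, and 2 in TKO, beside 6.47%. The L-Dnm1l-KO differences nearest to a call were those of Slco2b1 (1.62, 0.55 to 2.69, adjusted P 0.114) and Abca3 (-1.20, -2.001 to -0.392, adjusted P 0.119).

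Genotypes of 1 age were compared in the same way, a test that is conservative because their WT libraries are shared. No member differed between TKO and L-Dnm1l-KO at 2M (beside 2.37% of all genes), between DKO and L-Dnm1l-KO at 2M (1.81%), between TKO and L-Dnm1l-KO at 6M (0.271%) or between DKO and L-Dnm1l-KO at 6M (0.904%). The unadjusted counts were 2, 1, 0 and 3 of 19 members, beside 14.9%, 9.31%, 3.89% and 17.9% of all genes. Slco1b2 was 1.43 higher on the log2 scale in TKO than in L-Dnm1l-KO at 2M (0.43 to 2.43, adjusted P 0.117), and Abca6 was 2.05 higher (0.58 to 3.52, adjusted P 0.129). Lower transporter mRNA in L-Dnm1l-KO than in TKO livers at 2M was therefore not established for any single member after adjustment. At 6M, Abca1 and Abcc2 were lower in DKO than in L-Dnm1l-KO by differences of -1.22 and -1.15, with adjusted P values of 0.249 and 0.262.

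Hepatocyte markers moved in the comparisons in which transporters were called. Of 9 markers, 4 fell in L-Dnm1l-KO at 2M, 4 in DKO at 2M and 6 in DKO at 6M, with median log2 fold changes of -1.11, -1.08 and -1.10. Beside these counts, 3.22%, 4.94% and 9.42% of all genes were called lower, and 8.69%, 10.5% and 34.4% of those that overlap no opposite-strand gene and whose mean reached 10. None was called in L-Dnm1l-KO at 6M or in TKO, where the medians were 0.08, 0.12 (2M) and 0.23 (6M). Alb, the gene whose promoter drives Cre, was at -1.15 ± 0.41, -1.08 ± 0.41 and -1.23 ± 0.41 in the first 3 comparisons, and was called at 6M but not at 2M (adjusted P 0.0654, 0.0787 and 0.0255 in DESeq2). Apoa1 fell in each, at -1.11 ± 0.27, -1.59 ± 0.27 and -1.04 ± 0.27. Other markers went the other way at 2M without a call, with 2 of 9 above WT in L-Dnm1l-KO (Tat at 0.13 and Cyp3a11 at 0.03) and 3 in DKO (Tat at 1.10, Cps1 at 0.51 and Cyp3a11 at 0.29). The part of these shifts in the transporter calls was not tested, and in whole liver fewer hepatocytes and less RNA per hepatocyte cannot be told apart. Markers of other liver cells could mostly not be called. None of cholangiocytes, T and B cells or neutrophils had an adjusted P in any comparison, and at most 1 of 8 stellate, 2 of 6 endothelial and 3 of 8 macrophage markers had one. Of these, Csf1r was called, higher in DKO at 6M (0.81 ± 0.20, adjusted P 0.00168 in DESeq2), and its exons share 873 bases with the opposite-strand coding gene Hmgxb3. The other macrophage markers with a mean of at least 1 lay below WT in that comparison, 6 of 7, with a list median of -1.13 and the complement gene C1qb at -3.96 (unadjusted P 0.00526 in DESeq2). In L-Dnm1l-KO at 2M, 6 of 7 lay above WT, with a median of 1.59 and C1qb at 4.54 (unadjusted P 0.00123). In DKO at 2M, 6 of 7 were also above WT, with a median of 1.31. In L-Dnm1l-KO at 6M all 7 were, with a median of 0.77. Stellate markers with a mean of at least 1 had medians of 0.01 in L-Dnm1l-KO at 2M, 1.57 in DKO at 2M (3 of 3 above WT) and -0.69 in DKO at 6M. Endothelial medians there were 0.00, 0.00 and -0.52, the last with 5 of 5 below WT. The part of all these markers in the transporter values was not tested. Krt7 and Krt19 of bile ducts had means of 0.0613 and 0.0850.

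Of 12 regulators of transporter genes, none was called in L-Dnm1l-KO or DKO at 2M or in TKO, and 3 of 11 tested fell in DKO at 6M. Beside this count, 9.42% of all genes were called lower, and 16% of those that overlap no opposite-strand gene. Where the mean also reached 10 that share was 34.4%, but the 3 called regulators include means of 6.454 and 7.004. These 3 were Nr1h3, the sterol receptor LXRα that drives Abca1 (-1.98 ± 0.63, adjusted P 0.02), Nfe2l2, the oxidant-response factor that drives Abcc genes (-1.97 ± 0.68, adjusted P 0.0305), and Rxra, the partner of these nuclear receptors (-1.07 ± 0.36, adjusted P 0.0267), all in DESeq2. Nr1h4, the bile acid receptor FXR, was at -0.94 ± 0.49 in DKO at 6M. Of hepatic carriers outside the rule, the bile acid uptake carrier Slc10a1 fell in DKO at 2M (-0.96 ± 0.32, adjusted P 0.0336) and at 6M (-1.15 ± 0.30, adjusted P 0.004), and the cation exporter Slc47a1 fell in DKO at 6M (-1.64 ± 0.59, adjusted P 0.0398).

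The deleted genes were read at low levels. Mfn2 (mean 9.036) fell in DKO at 2M and 6M (-3.43 ± 0.66 and -1.59 ± 0.52) and in TKO at 2M (-2.05 ± 0.53), and Mfn1 (mean 4.642) fell in DKO at 6M (-3.74 ± 0.98). Dnm1l (mean 8.7) was at -0.42 ± 0.52 and -0.44 ± 0.47 in L-Dnm1l-KO and at 0.58 ± 0.48 and -0.37 ± 0.48 in TKO and was not called, so its value does not check those labels.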

How the data were processed

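Poly(A) RNA from mouse livers was made into strand-specific libraries by the authors, who mapped reads with HISAT2 2.1.0.13 to GRCm38, counted them on genes with HTSeq and fitted DESeq2. Their deposited results table, whose columns are the authors' own fits of the 6 comparisons, was the input. As deposited, the signal of a gene is its mean normalized count over all libraries. Log2 fold changes and standard errors were deposited by the authors from DESeq2, and the score they deposited is Wald's statistic. Each p-value deposited by the authors comes from the Wald test, and adjusted p-values are Benjamini-Hochberg values after DESeq2's filter on low counts, left as NA where the filter removed a gene. The depth per library is unknown, since single libraries were not analysed.

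Calls, differences between comparisons and their adjustments were computed over the whole table with scipy 1.17.1, pandas 2.3.3 and numpy 2.4.6 in Python 3.11.15, and the difference test was tested on simulated data. A mean count was divided by the summed length of the gene's exons in GENCODE M21 (GRCm38), in which 21833 gene identifiers were found and 47 were not. Promoter sequences are RefSeq's (GRCm38.p6) and matched 51 of the members. Abca6 and Abcc3 have no entry. A percentage of WT is 2 to the power of the log2 fold change. Alternatives were a log2 fold change past 1 or 1.5, other adjustments and centring by overlap with an opposite-strand coding gene.

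The genes named are the members called with a mean of at least 1, a list of hepatic transporters, the 8 members with the highest means, the deleted genes and genes that overlap a named member. Other members, regulators and markers are named from their lists, after their values were seen. Results of some genes, although within the counts, are not reported here. The members, lists and markers were chosen with earlier results of these data known.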

Additional observations from a re-analysis of the deposited data

Results flagged for a closer look

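The DKO effect differed between 6M and 2M for 3 transporter genes of 19 tested in the test of the difference of log2 fold changes, beside 11.1% of all genes, so the count itself is near the background. The difference (6M minus 2M) was -2.85 for Abca8b, -1.54 for Abcb4 and 0.81 for Slc22a3. Abca8b and Abcb4 lay above WT at 2M and below it at 6M, with adjusted p-values against WT of 0.141 and 0.013 for Abca8b and 0.217 and 0.167 for Abcb4 in DESeq2. Slc22a3 shares exonic bases with Plg on the other strand, and the part of Plg reads in its value was not tested. The libraries of the 2 ages may also differ in handling, which the labels do not give.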

How the results depend on the processing

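No paired analysis was possible because the deposited table holds no values per library, although the titles number the libraries of each group alike. For the same reason leaving out each replicate, a replicate block and edgeR's TMM normalization were not run. Requiring a log2 fold change past 1.5 left 1 member in L-Dnm1l-KO at 2M, 1 in DKO at 2M and 2 in DKO at 6M, since fewer genes can pass. Adjustment over every gene with a p-value left 1 member in L-Dnm1l-KO at 2M, Slco1b2, and 5 in DKO at 6M, and adjustment over genes whose mean reached 10 added Abca9 in DKO at 6M. Centring by overlap with an opposite-strand coding gene left 1 in L-Dnm1l-KO at 2M and 1 in DKO at 6M, neither of them among the members called in those comparisons without centring. The cause was not tested. The age difference in DKO livers held for 1 member, Slc22a3, when only genes with a mean of at least 30 were tested, a filter that removes Abcb4 and Abca8b, and for 2, Slc22a3 and Abca8b, when the minimum mean was 1. The adjusted p-values of Slco1b2 ran from 0.00603 to 0.0914 in L-Dnm1l-KO at 2M, from 0.00983 to 0.0743 in DKO at 2M and from 0.00176 to 0.222 in DKO at 6M, the highest with centring. No named member changed direction in a call.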
